A study of Mus musculus with 15 samples.

Results

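The genes described here are 10 transcripts used as readouts of the RAS-ERK (MAPK) pathway: the dual-specificity phosphatase genes Dusp4, Dusp5 and Dusp6, the Sprouty genes Spry1, Spry2 and Spry4, the Sprouty-related Spred1, the ETS transcription factor genes Etv4 and Etv5, and Phlda1. They were chosen by name as feedback inhibitors or transcriptional targets of the pathway, and make up 10 of the 78298 genes listed. The choice was made with earlier results of these data known. Counts and medians of the 10 set beside all genes are therefore description and not independent evidence. Their mRNA was counted by poly-A RNA-seq in 15 libraries of mouse small intestinal organoids, 3 biological replicates in each of 5 conditions.

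When a growth factor binds its receptor tyrosine kinase, RAS, RAF, MEK and ERK are activated in turn, and ERK switches on genes whose products damp the same cascade. The DUSPs remove phosphate from MAP kinases, the Sproutys and Spreds act higher up near the receptor and RAS, and the ETS factors of the PEA3 family, Etv4 and Etv5, carry the signal on to further genes. In the intestinal epithelium EGF receptor signalling to ERK sustains stem and progenitor cell proliferation and is used again in regeneration after injury.

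All conditions were stable lentiviral lines of primary C57BL/6J organoids, with the transgene behind the weak ubiquitous L30 promoter. Halo-NLS, the control, carried the HaloTag with a nuclear localisation signal (L30prom_V5-Halo-GDGAGLIN-NLS_IRES_Puro). SOX9-mEGFP_budding and SOX9-Halo_budding overexpressed the transcription factor SOX9 fused to mEGFP (L30prom_Sox9-GDGAGLIN-mEGFP-V5_IRES_Puro) or to the HaloTag (L30prom_Sox9-GDGAGLIN-Halo-V5_IRES_Puro) and still had the budding shape of normal organoids. SOX9-mEGFP_spheroid and SOX9-Halo_spheroid were the same lines after longer culture, when they grew as spheres. The spheroids also carried a histone H2B reporter, H2B-mScarletI (L30prom_H2B-GDGAGLIN-mScarletI-V5_IRES_Neo) in SOX9-mEGFP_spheroid and H2B-mEGFP (L30prom_H2B-GDGAGLIN-mEGFP-V5_IRES_Zeo) in SOX9-Halo_spheroid. Within a line the shape, the time in culture and the H2B construct therefore changed together and cannot be told apart, and each tag was represented by 1 line. Halo-NLS was also a separate stable line. A difference from it therefore cannot be told apart from a difference between lines or in culture time. Per the paper's methods, replicates of a condition were harvested at nearby passages, so the standard errors describe spread within a line.

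Between 28062722 and 40559766 reads per library were counted on genes (median 33491297). Sox9 ranged from 9.10 to 22.9 CPM (reads relative to the library total, scaled between libraries by the TMM method) in Halo-NLS and from 39.8 to 705 CPM in the 12 SOX9 libraries, with SOX9-Halo_budding replicate 1 the lowest of these. Summed over 6 epithelial markers (Epcam, Cdh1, Krt8, Krt18, Krt19 and Vil1) the libraries held 5102 to 11526 CPM, against at most 8.52 CPM over 7 mesenchymal, 3.80 CPM over 5 immune and 1.01 CPM over 3 endothelial markers. The libraries of the spheroids also differed from the others in markers of intestinal cell types. Over 4 enterocyte markers the sum was 3985 to 8425 CPM in Halo-NLS, 1144 to 6232 CPM in the budding organoids, 131 to 372 CPM in SOX9-mEGFP_spheroid and 1.52 to 4.83 CPM in SOX9-Halo_spheroid. Over 4 secretory markers it was 1044 to 1745 CPM, 618 to 1822 CPM, 31.6 to 69.4 CPM and 0.733 to 1.18 CPM in the same order. Over 4 fetal-like markers it was 3285 to 5690 CPM in the spheroids against 8.88 to 70.9 CPM in the others. Over 4 crypt base stem cell markers it was 20.5 to 76.7 CPM in the spheroids against 147 to 926 CPM in the others, where Smoc2 and Olfm4 held most of it. Lgr5 averaged 11.5 CPM in Halo-NLS, 33.3 and 39.6 CPM in SOX9-mEGFP_budding and SOX9-Halo_budding, 45.8 CPM in SOX9-mEGFP_spheroid and 9.61 CPM in SOX9-Halo_spheroid, and Ascl2 averaged 13.6, 9.15, 4.01, 7.43 and 6.33 CPM in the same order, so that neither was lower in both spheroid conditions than in all others. The part that a change in cell composition takes in the values below was not tested, and in these bulk libraries fewer cells of a type and less RNA per cell cannot be told apart.

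The stretch just before the transcription start was read for all 10 genes, because ERK acts on several of them through repressors and activators bound near the start. The repressor Capicua (CIC), which ERK signalling inactivates, binds the octamers TGAATGAA and TGAATGGA. In the 250 bases before the start (GENCODE M39 canonical transcript, GRCm39), one of these octamers was found on either strand in 4 of the 10 genes (Etv4, Etv5, Dusp4 and Spry4), against 2.04% of 21757 protein-coding promoters of the same length. The 3 sequences below are shown because they hold these octamers, Etv4 with the most. They run 5′ to 3′ on the gene's strand with the octamers, or their reverse complements, in capitals.
Etv4: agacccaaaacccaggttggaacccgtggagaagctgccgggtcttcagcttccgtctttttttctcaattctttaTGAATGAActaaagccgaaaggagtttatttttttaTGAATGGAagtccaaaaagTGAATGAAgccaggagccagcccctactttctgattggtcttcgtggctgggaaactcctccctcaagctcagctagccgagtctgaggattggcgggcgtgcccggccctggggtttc
Etv5: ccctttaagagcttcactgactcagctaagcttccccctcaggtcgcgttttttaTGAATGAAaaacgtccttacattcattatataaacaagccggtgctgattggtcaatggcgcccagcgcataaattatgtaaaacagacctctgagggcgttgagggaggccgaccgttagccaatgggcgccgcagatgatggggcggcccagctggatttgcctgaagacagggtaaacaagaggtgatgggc
Dusp4: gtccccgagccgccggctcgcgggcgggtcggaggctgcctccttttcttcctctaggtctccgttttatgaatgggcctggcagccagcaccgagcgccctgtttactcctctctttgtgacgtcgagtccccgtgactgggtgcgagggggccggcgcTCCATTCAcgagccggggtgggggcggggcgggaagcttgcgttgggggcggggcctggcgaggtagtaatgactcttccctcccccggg
They lie at chr11:101676198-101676447 (minus strand), chr16:22258484-22258733 (minus strand) and chr8:35274192-35274441 (plus strand), respectively. Etv4 held 3 octamers, starting 174, 138 and 119 bases before the start, Etv5 held 1 at 195 bases and Dusp4 held 1 at 90 bases, on the opposite strand. The Etv5 window also overlaps an exon of the antisense noncoding gene Gm59753. In Spry4 the single match began 213 bases before the start. The SOX core AACAAT was found in 2 of the 10 genes, Dusp6 and Spry1 (9.66% of promoters), and the AP-1 site TGANTCA in 1, Etv5 (6.18%). The ETS core CCGGAAG (6.89%) and the cAMP response element TGACGTCA (1.70%) were found in none of the 10. All motifs were searched on both strands, none of the matches overlapped another motif, and a match describes letters only, not binding.

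**Figure D1:**
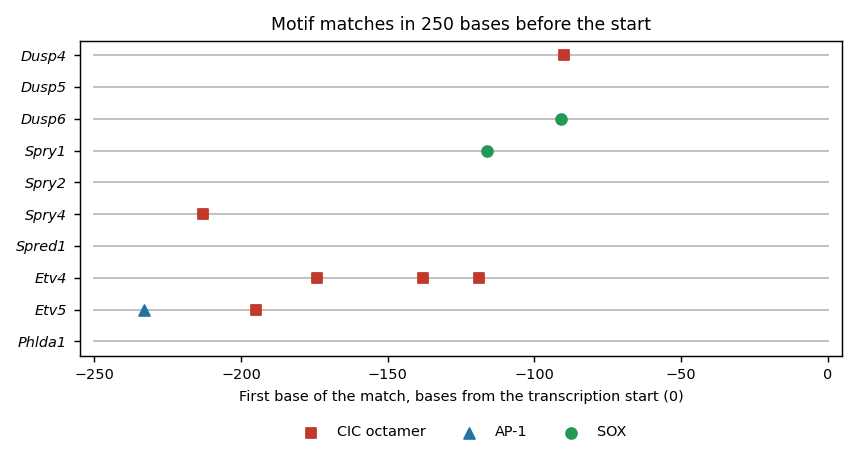
Position of each motif match in the 250 bases before the transcription start of the 10 genes; the x axis gives the first base of the match in bases from the start and the symbols give the motif. CIC octamers lie in Etv4 (3), Etv5, Dusp4 and Spry4 (1 each), SOX cores in Dusp6 and Spry1, and an AP-1 site in Etv5.

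Against Halo-NLS organoids, Spry4, Spred1, Etv5 and Phlda1 rose in spheroids of both lines and Dusp5 fell in both. The share of all genes that passed in both lines was not computed. In SOX9-mEGFP_spheroid 5 rose (Dusp6, Spry4, Spred1, Etv5 and Phlda1), 1 fell (Dusp5) and 4 did not pass the test. In SOX9-Halo_spheroid 7 rose (Spry1, Spry2, Spry4, Spred1, Etv4, Etv5 and Phlda1), 1 fell (Dusp5) and 2 did not pass. The test was edgeR's quasi-likelihood test over 17560 genes, and a gene passed when its adjusted p did not exceed 0.01, its level changed 2-fold or more and its normalised count averaged 10 or more. All 10 genes had enough reads to be tested. Among all tested genes 15.3% rose and 12.1% fell in SOX9-mEGFP_spheroid, and 13.6% rose and 15.3% fell in SOX9-Halo_spheroid. All 3 spheroid libraries were above all 3 Halo-NLS libraries for 8 of the 10 genes in each line, as for 29.5% of all genes in SOX9-mEGFP_spheroid and 26.5% in SOX9-Halo_spheroid, and below them for 1 gene, Dusp5, in each (27.0% and 28.4% of all genes). The median log2 fold change of the 10 genes was 1.39 and 1.84, against 0.03 and −0.01 over all genes tested. Both comparisons share the Halo-NLS libraries.

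**Figure D2:**
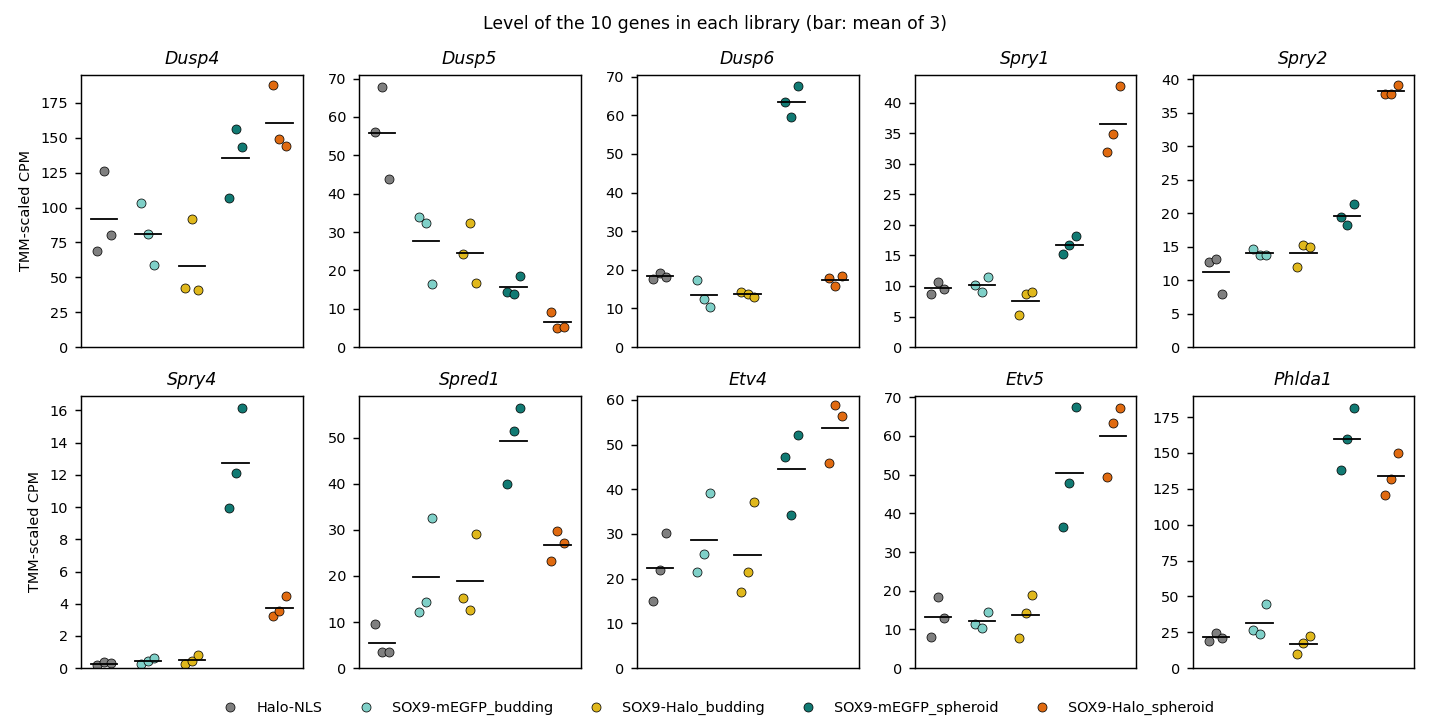
TMM-scaled CPM (y axis, linear from 0, one scale per gene) of the 10 genes in each of the 15 libraries, coloured by condition; points are libraries in replicate order and the bar is the mean of 3. Phlda1 and Etv5 are high in both spheroid conditions, Dusp6 is high in SOX9-mEGFP_spheroid (59.4 to 67.7 CPM), and Dusp5 is highest in Halo-NLS.

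Etv4 and Etv5 encode PEA3 family ETS activators and lie on chromosome 11 (101660568 to 101676197) and chromosome 16 (22200052 to 22259662) of GRCm39. Etv5 measured 8.02, 18.3 and 13.0 CPM in Halo-NLS replicates 1 to 3, 36.3, 47.8 and 67.4 CPM in SOX9-mEGFP_spheroid and 49.3, 63.2 and 67.1 CPM in SOX9-Halo_spheroid. Every spheroid library was above every other library, which reached at most 18.9 CPM, and the spheroid conditions overlapped each other. Etv5 rose by 1.95 ± 0.35 (log2 fold change ± SE, n = 3 per condition) in SOX9-mEGFP_spheroid against Halo-NLS (adjusted p in edgeR's test = 4.2e-04) and by 2.19 ± 0.35 in SOX9-Halo_spheroid (adjusted p = 1.2e-04). In budding organoids it measured 10.5 to 14.5 CPM in the SOX9-mEGFP line and 7.92 to 18.9 CPM in the SOX9-Halo line, within or near the Halo-NLS range. Without the third replicate of every condition the SOX9-mEGFP_spheroid change of Etv5 was 1.62 and its adjusted p 0.018, past the limit.

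Etv4 changed less. It measured 15.0, 22.0 and 30.3 CPM in Halo-NLS, 47.3, 34.3 and 52.1 CPM in SOX9-mEGFP_spheroid and 45.8, 58.7 and 56.3 CPM in SOX9-Halo_spheroid. No spheroid library fell into the Halo-NLS range, but the budding libraries (21.5 to 39.2 CPM and 17.1 to 37.2 CPM) reached into that of SOX9-mEGFP_spheroid. Etv4 passed in SOX9-Halo_spheroid against Halo-NLS (1.26 ± 0.33, edgeR adjusted p = 0.0055), and its value in SOX9-mEGFP_spheroid was 0.99 ± 0.33 (adjusted p = 0.021). The SOX9-Halo_spheroid call was lost without Halo-NLS replicate 1 (1.05, adjusted p = 0.019) or 2 (1.25, 0.017), and without SOX9-Halo_spheroid replicate 2 (1.17, 0.021) or 3 (1.20, 0.020). Replicate 3 was the highest of its 3 libraries for Etv4 in Halo-NLS and in both budding conditions. Between SOX9-Halo_budding and SOX9-Halo_spheroid, whose replicate numbers went together across genes, Etv4 differed by 1.08 ± 0.33 (adjusted p = 0.015) and by 1.11 (adjusted p = 0.0045, passing the test) with the replicate number as a block in a fit of that line alone.

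The Sprouty genes encode membrane-associated inhibitors of receptor tyrosine kinase signalling. Spry4 (chromosome 18, 38719300 to 38736025) was close to the detection limit outside the spheroids. It had 5 to 29 reads in each of the 9 Halo-NLS and budding libraries, or 0.195, 0.376 and 0.300 CPM in Halo-NLS, 0.290, 0.464 and 0.650 CPM in SOX9-mEGFP_budding and 0.284, 0.464 and 0.843 CPM in SOX9-Halo_budding. SOX9-mEGFP_spheroid gave 9.94, 12.1 and 16.1 CPM and SOX9-Halo_spheroid 3.21, 3.55 and 4.51 CPM, so the spheroid conditions overlapped neither the others nor each other. Against Halo-NLS this was a rise of 5.43 ± 0.44 (43.0-fold, edgeR adjusted p = 3.5e-07) and of 3.67 ± 0.43 (12.7-fold, adjusted p = 5.3e-06). The 464 tested genes of chromosome 18 had a median log2 fold change of 0.80 in SOX9-mEGFP_spheroid and 0.19 in SOX9-Halo_spheroid against Halo-NLS, and the part of this shift in the Spry4 value was not tested.

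Spry1 (chromosome 3, 37693897 to 37698755) and Spry2 (chromosome 14, 106128766 to 106136446) had their highest levels in SOX9-Halo_spheroid. Spry1 measured 8.65, 10.7 and 9.44 CPM in Halo-NLS, 15.3, 16.8 and 18.2 CPM in SOX9-mEGFP_spheroid and 31.9, 34.9 and 42.7 CPM in SOX9-Halo_spheroid. Spry2 measured 12.7, 13.2 and 7.87 CPM, then 19.4, 18.2 and 21.4 CPM, then 37.8, 37.7 and 39.1 CPM in the same conditions. For both genes the 3 conditions did not overlap. Against Halo-NLS Spry1 rose by 1.93 ± 0.23 (edgeR adjusted p = 7.1e-06) and Spry2 by 1.76 ± 0.21 (adjusted p = 7.8e-06) in SOX9-Halo_spheroid. In SOX9-mEGFP_spheroid their values were 0.80 ± 0.23 (adjusted p = 0.0087) and 0.80 ± 0.21 (adjusted p = 0.0057), under the fold limit.

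Spred1, which brings the RAS inhibitor neurofibromin to the membrane, lies on chromosome 2 (116951524 to 117018277). It measured 9.50, 3.45 and 3.56 CPM in Halo-NLS, 40.0, 51.4 and 56.4 CPM in SOX9-mEGFP_spheroid and 23.2, 29.8 and 27.1 CPM in SOX9-Halo_spheroid. Budding organoids gave 12.2, 14.4 and 32.5 CPM in the SOX9-mEGFP line and 15.2, 12.7 and 29.1 CPM in the SOX9-Halo line. Both budding conditions were above Halo-NLS in every library, with replicate 3 the highest in each, and overlapped SOX9-Halo_spheroid. Against Halo-NLS Spred1 rose by 3.16 ± 0.47 in SOX9-mEGFP_spheroid (edgeR adjusted p = 8.4e-05) and by 2.28 ± 0.46 in SOX9-Halo_spheroid (adjusted p = 8.0e-04).

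Of the dual-specificity phosphatase genes, against Halo-NLS, Dusp6 rose in SOX9-mEGFP_spheroid, Dusp5 fell in both spheroid conditions and Dusp4 passed in neither. Dusp6, which encodes the cytoplasmic phosphatase most selective for ERK, lies on chromosome 10 (99086564 to 99103361) and measured 17.6, 19.1 and 18.1 CPM in Halo-NLS. It reached 63.5, 59.4 and 67.7 CPM in SOX9-mEGFP_spheroid, above all other libraries, but 17.9, 15.9 and 18.4 CPM in SOX9-Halo_spheroid, within the span of Halo-NLS and the budding organoids (10.4 to 19.1 CPM). The change against Halo-NLS was 1.80 ± 0.20 (edgeR adjusted p = 5.3e-06) in the former and −0.07 ± 0.19 (95% interval −0.49 to 0.34, adjusted p = 0.78) in the latter, a direction that turned to 0.22 with library sizes alone.

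Dusp5, a nuclear ERK phosphatase gene on chromosome 19 (53517532 to 53530862), fell. Halo-NLS gave 56.0, 67.9 and 43.8 CPM, SOX9-mEGFP_spheroid 14.3, 14.0 and 18.5 CPM and SOX9-Halo_spheroid 9.18, 5.02 and 5.37 CPM, with no overlap between the 3 conditions. The fall was −1.84 ± 0.33 (edgeR adjusted p = 4.4e-04) and −3.10 ± 0.35 (adjusted p = 4.1e-06) on the log2 scale. The 655 tested genes of chromosome 19 had a median log2 fold change of −0.79 in SOX9-mEGFP_spheroid and −0.06 in SOX9-Halo_spheroid. The part of such shifts in the Dusp5 values was not tested in either condition.

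Dusp4, a nuclear phosphatase gene on chromosome 8 (35274442 to 35287048), varied within Halo-NLS, at 69.0, 126 and 80.3 CPM. SOX9-mEGFP_spheroid (107, 156 and 144 CPM) overlapped this range and SOX9-Halo_spheroid (188, 149 and 144 CPM) did not. The log2 fold changes against Halo-NLS were 0.56 ± 0.33 (edgeR adjusted p = 0.17) and 0.80 ± 0.33 (adjusted p = 0.055), and neither passed.

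Phlda1, an ERK-induced gene for a pleckstrin homology-like domain protein on chromosome 10 (111342147 to 111344506), measured 18.9, 24.7 and 20.8 CPM in Halo-NLS. SOX9-mEGFP_spheroid gave 138, 159.9 and 181 CPM and SOX9-Halo_spheroid 121, 131 and 150.0 CPM, far above the highest other library (44.5 CPM), and the spheroid conditions overlapped. Phlda1 rose by 2.90 ± 0.31 (7.45-fold, edgeR adjusted p = 3.3e-06) and 2.64 ± 0.30 (6.25-fold, adjusted p = 4.3e-06). Per kb of exon, which sets genes of unlike length side by side, Phlda1 (72.5 and 60.8 CPM per kb) and Dusp4 (47.1 and 55.7 CPM per kb) were the highest of the 10 in SOX9-mEGFP_spheroid and SOX9-Halo_spheroid. The scale was not corrected for exon bases shared with genes on the other strand, 33.0% of the exon length in Phlda1, 22.4% in Dusp5 and 0% in Dusp4 and Spry4. In Halo-NLS the order was led by Dusp4 (32.0 CPM per kb) and Dusp5 (22.5 CPM per kb), and Spry4 was the lowest in all 5 conditions, at 0.0440 CPM per kb in Halo-NLS.

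**Figure D3:**
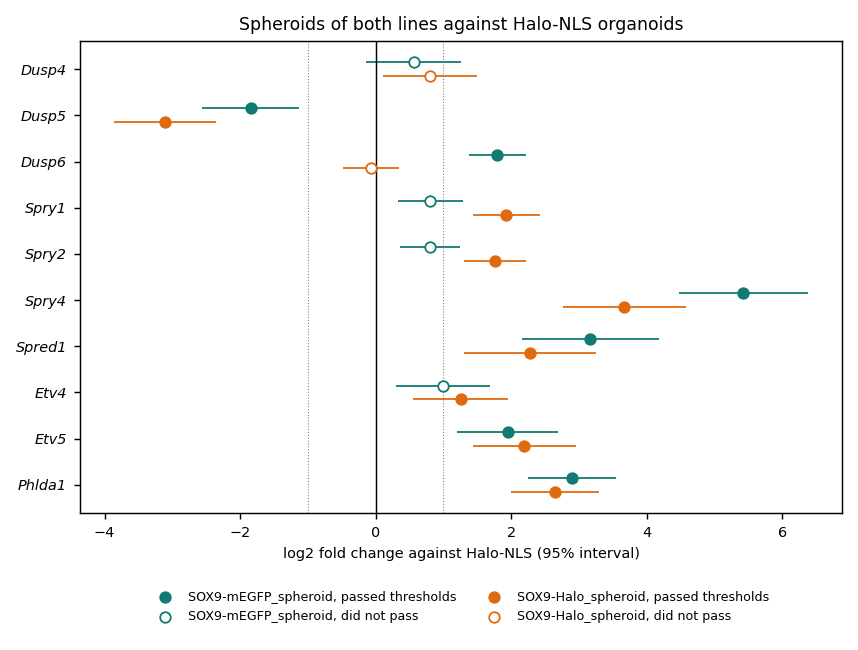
Log2 fold change against Halo-NLS (x axis, with 95% interval) of the 10 genes in SOX9-mEGFP_spheroid (green) and SOX9-Halo_spheroid (orange); filled points passed the thresholds and dotted lines mark a log2 fold change of 1. Spry4, Spred1, Etv5 and Phlda1 are filled to the right in both, Dusp5 to the left in both, and Dusp6 sits at 1.80 in one and −0.07 in the other.

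Budding organoids were compared with Halo-NLS to ask which of the genes had moved before the change of shape. None of the 10 passed edgeR's test in SOX9-mEGFP_budding (1.99% of all genes were called higher and 0.763% lower) or SOX9-Halo_budding (2.49% and 1.26%). Spred1 had the largest values, 1.84 ± 0.45 (adjusted p = 0.019) and 1.79 ± 0.45 (adjusted p = 0.018), followed by Dusp5 at −1.02 ± 0.33 (0.049) and −1.19 ± 0.33 (0.024). DESeq2 called Spred1 higher in both lines (adjusted p = 0.0012 and 0.0013) and Dusp5 lower in SOX9-Halo_budding (adjusted p = 0.0055). DESeq2 also called more of all genes higher than edgeR, 940 against 350 in SOX9-mEGFP_budding and 1200 against 438 in SOX9-Halo_budding. In the latter it called 461 lower against 221. The 655 tested genes of chromosome 19, which holds Dusp5, had a median of −0.33 in SOX9-mEGFP_budding and −0.62 in SOX9-Halo_budding. The part of this shift in the Dusp5 values was not tested. Without Halo-NLS replicate 1, the highest control library for Spred1, edgeR called Spred1 too, at 2.50 and 2.44. That fit called 1839 and 1986 of all genes higher. The other 8 genes lay between −0.66 and 0.84 in both comparisons. All 3 libraries lay above Halo-NLS for 2 genes (Spred1 and Spry2) and below it for 2 (Dusp5 and Dusp6) in SOX9-mEGFP_budding, as for 17.2% and 15.4% of all genes, and for 1 (Spred1) and 2 (Dusp5 and Dusp6) in SOX9-Halo_budding, as for 14.8% and 14.9%. The 2 budding conditions differed in none of the 10 by edgeR's test (0.290% of all genes were called higher and 0.165% lower) or by DESeq2. Phlda1 had the largest value there (−0.93 ± 0.29 in SOX9-Halo_budding against SOX9-mEGFP_budding, edgeR adjusted p = 0.21). All 3 SOX9-Halo_budding libraries lay below those of SOX9-mEGFP_budding for 2 genes, Spry1 and Phlda1 (6.18% of all genes), and above them for 0 (5.81%).

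Within each line, spheroids were then set against budding organoids. In the SOX9-mEGFP line 4 genes rose, Spry4 (4.73 ± 0.42), Phlda1 (2.33 ± 0.30), Dusp6 (2.25 ± 0.20) and Etv5 (2.06 ± 0.35), where 8.55% of all genes rose and 7.88% fell. None of the 10 fell in that line by edgeR or DESeq2. Dusp5 was lower without passing (−0.82 ± 0.33, edgeR adjusted p = 0.077). The 655 tested genes of its chromosome 19 had a median of −0.43 in that comparison, and the part of this shift was not tested. Spred1, at 1.32 ± 0.44 (adjusted p = 0.035) in the SOX9-mEGFP line, passed with no filter on low counts (2.8e-04) and without SOX9-mEGFP_budding replicate 3 (1.84, 0.0054). The Etv5 call there was lost without the third replicate of every condition (1.90, 0.012). In the SOX9-Halo line 6 rose, Phlda1 (3.01 ± 0.31), Spry4 (2.83 ± 0.39), Spry1 (2.26 ± 0.23), Etv5 (2.13 ± 0.35), Dusp4 (1.46 ± 0.33) and Spry2 (1.44 ± 0.21), and Dusp5 fell (−1.91 ± 0.34), where 10.5% of all genes rose and 14.7% fell. The 4 genes of the SOX9-mEGFP line had edgeR adjusted p of at most 4.0e-04 and the 7 of the SOX9-Halo line of at most 0.0023. In each line 8 of the 10 genes had all 3 spheroid libraries above all 3 budding libraries, as did 23.9% of all genes in the SOX9-mEGFP line and 24.6% in the SOX9-Halo line. All 3 lay below for none of the 10 in the SOX9-mEGFP line (22.1% of all genes) and for Dusp5 in the SOX9-Halo line (28.2%). The Dusp4 call in the SOX9-Halo line was lost without SOX9-Halo_budding replicate 1 (1.27, adjusted p = 0.016) or 3 (1.28, 0.013) and without SOX9-Halo_spheroid replicate 1 (1.34, 0.011), without the third replicate of every condition (1.32, 0.038) and in the fit of only the libraries compared (1.41, 0.011). The 971 tested genes of its chromosome 8 had a median of 0.41 in that comparison.

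Whether the lines differed in that step was tested as an interaction, the SOX9-Halo change minus the SOX9-mEGFP change. The change of Dusp6 was smaller in the SOX9-Halo line, where Dusp6 itself did not pass (0.35 ± 0.19, edgeR adjusted p = 0.18), than in the SOX9-mEGFP line, by a difference of −1.90 ± 0.28 (adjusted p = 2.5e-04). The change of Spry1 was larger in the SOX9-Halo line than in the SOX9-mEGFP line, where it did not pass (0.72 ± 0.22, adjusted p = 0.026), by 1.54 ± 0.32 (adjusted p = 0.0040). Among all genes 5.58% had a lower and 1.81% a higher change in the SOX9-Halo line. The difference was −1.89 ± 0.54 for Spry4 (adjusted p = 0.031), and 0.0041 with the replicate number as a block over all 15 libraries, and 0.96 ± 0.29 for Spry2 (adjusted p = 0.043). For Etv5 it was 0.08 ± 0.48 (95% interval −0.95 to 1.10) and for Phlda1 0.68 ± 0.40 (−0.18 to 1.54). The Spry1 call was lost without SOX9-Halo_spheroid replicate 2 (adjusted p = 0.012) or 3 (0.019) and without SOX9-mEGFP_spheroid replicate 1 (0.018) or 2 (0.015), at differences of 1.38 to 1.55, with no filter on low counts (1.56, 0.012) and without the third replicate of every condition (1.56, 0.052). The Dusp6 call held without any single library and was lost (−1.73, adjusted p = 0.013) when the third replicate of every condition was left out.

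The spheroids were also compared directly. Dusp6 (−1.87 ± 0.20, edgeR adjusted p = 6.1e-06) and Spry4 (−1.76 ± 0.35, adjusted p = 0.0018) were lower and Spry1 (1.12 ± 0.23, adjusted p = 0.0017) was higher in SOX9-Halo_spheroid than in SOX9-mEGFP_spheroid, where 9.58% of all genes were lower and 3.59% higher. Spry2 was 0.96 ± 0.21 (adjusted p = 0.0031), just under the fold limit, and Dusp5 −1.26 ± 0.33 (adjusted p = 0.012). In this comparison the median over tested genes was −0.60 on chromosome 18, which holds Spry4, and 0.56 on chromosome 19, which holds Dusp5. The part of these shifts in the values of Spry4 and Dusp5 was not tested. Dusp5 passed in 6 of 13 alternatives, DESeq2 (0.0032), library sizes alone (0.0064), no filter (8.1e-04), only the libraries compared (0.0039), the replicate block (0.0052) and without SOX9-Halo_spheroid replicate 1 (0.0062). All 3 SOX9-Halo_spheroid libraries lay above all 3 SOX9-mEGFP_spheroid libraries for 2 genes (Spry1 and Spry2, 20.6% of all genes) and below them for 4 (Dusp5, Dusp6, Spry4 and Spred1, 28.0%). Spry1 no longer passed without SOX9-Halo_spheroid replicate 3 or SOX9-mEGFP_spheroid replicate 1 or 2 (adjusted p 0.011 to 0.014) or without the third replicate of every condition (0.030), nor Spry4 without SOX9-Halo_spheroid replicate 1 or 2 or SOX9-mEGFP_spheroid replicate 3, or without the third replicate of every condition (0.010 to 0.013). Etv4 (0.27 ± 0.32), Etv5 (0.25 ± 0.34), Phlda1 (−0.25 ± 0.28) and Dusp4 (0.24 ± 0.33) did not pass, and their 95% intervals reached from −0.86 to 0.97.

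**Figure D4:**
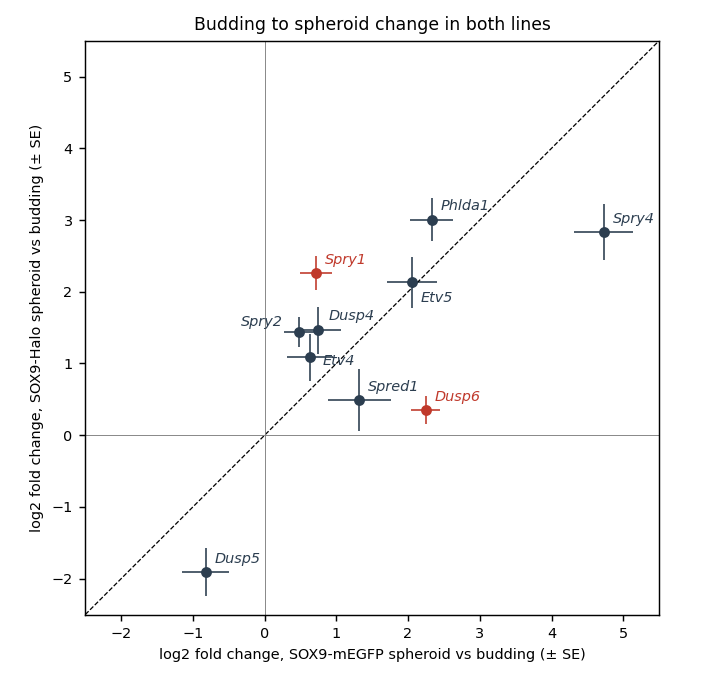
Log2 fold change from budding to spheroid in the SOX9-mEGFP line (x axis) and the SOX9-Halo line (y axis) for the 10 genes, with standard errors; the dashed line marks equal change and red marks the genes whose difference between the lines passed the test. Dusp6 (2.25 and 0.35) lies far to the right of the line and Spry1 (0.72 and 2.26) above it.

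Over the 15 libraries, the log2 CPM of Phlda1 ran closest to those of Etv5 (Pearson r = 0.94) and Spry4 (r = 0.94), that of Spry1 to Spry2 (r = 0.91), and Dusp5 opposite to Spry2 (r = −0.86). These describe libraries that share conditions and carry no test. The genes whose log2 CPM was most like that of Dusp6 were Scara3 (r = 0.97), Ddo (r = 0.96) and Col4a6 (r = 0.96). Scara3 averaged 38.7 ± 12.8 CPM (SD, n = 3) in SOX9-mEGFP_spheroid and at most 0.188 CPM in the other conditions. Ddo averaged 1.33 CPM and Col4a6 17.9 CPM in SOX9-mEGFP_spheroid, against at most 0.087 and 0.063 CPM in the others. These r therefore mainly describe the contrast of SOX9-mEGFP_spheroid with the rest.

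Other genes were described from lists by role or gene family. The other dual-specificity phosphatases were listed as a family, and whether each acts on ERK was not examined. Among all tested genes, 15.3% rose and 12.1% fell in SOX9-mEGFP_spheroid against Halo-NLS. In SOX9-Halo_spheroid 13.6% rose and 15.3% fell. These shares apply to the counts of every list below. Of 10 other dual-specificity phosphatases tested, 4 rose and 1 fell in SOX9-mEGFP_spheroid against Halo-NLS (median log2 fold change 0.88), and 5 rose and 1 fell in SOX9-Halo_spheroid (0.77). Dusp10 (2.41 and 1.31), Dusp18 (2.17 and 1.68) and Dusp22 (6.50 and 6.30, from 0.150 CPM in Halo-NLS) rose in both, Dusp1 (1.61) in SOX9-mEGFP_spheroid, and Dusp7 (2.62) and Dusp9 (2.03) in SOX9-Halo_spheroid. Dusp14 fell in both (−2.26 and −2.13). Dusp7, like Dusp6 a cytoplasmic ERK phosphatase, averaged 82.5 ± 11.9 CPM (SD, n = 3) in SOX9-Halo_spheroid and 21.6 ± 6.72 CPM in SOX9-mEGFP_spheroid, the reverse of the Dusp6 order (difference 1.94, edgeR adjusted p = 3.2e-04). Of the more abundant Dusp3 and Dusp16, neither passed.

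Of 10 other Spred genes and receptor feedback inhibitors, 6 rose and 1 fell in SOX9-mEGFP_spheroid (median 1.25), and 2 rose and 2 fell in SOX9-Halo_spheroid (0.51). Of all tested genes 15.3% rose and 12.1% fell in the former, and 13.6% rose and 15.3% fell in the latter. Errfi1, an inhibitor of the EGF receptor family (1.48 and 1.93), and Lrig2 (1.46 and 1.14) rose in both, and Spred2 (1.49), Spred3 (1.24) and the receptor ubiquitin ligase genes Cbl (1.54) and Cblb (1.26) in SOX9-mEGFP_spheroid. Il17rd, also known as Sef, an inhibitor of FGF signalling, fell in both (−2.86 and −3.28), and Lrig3 in SOX9-Halo_spheroid (−6.82). Lrig1 was within 0.16 of Halo-NLS in both and did not pass. Lrig2 already passed in SOX9-Halo_budding against Halo-NLS (1.55, edgeR adjusted p = 0.0044). Cbl averaged 10.9 CPM in Halo-NLS, 31.2 and 33.5 CPM in SOX9-mEGFP_budding and SOX9-Halo_budding and 31.7 CPM in SOX9-mEGFP_spheroid. From budding to spheroid the list median was 0.34 in the SOX9-mEGFP line (1 rose, 1 fell) and −0.09 in the SOX9-Halo line (1 rose, 2 fell). Of all genes 8.55% rose and 7.88% fell, and 10.5% rose and 14.7% fell.

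Of 19 other ETS factors and their repressors, 8 rose in SOX9-mEGFP_spheroid (median 0.79), and 4 rose and 1 fell in SOX9-Halo_spheroid (0.45). Of all tested genes 15.3% rose in the former, and 13.6% rose and 15.3% fell in the latter. The list median was already 0.66 in SOX9-mEGFP_budding and 0.71 in SOX9-Halo_budding against Halo-NLS, where Elk4 (1.59 and 1.61), Ets1 (1.67 in SOX9-mEGFP_budding) and Atxn1l (1.08 in SOX9-Halo_budding) passed, and 0.12 and −0.19 from budding to spheroid. Elk3 (6.62 and 6.73, from 0.147 CPM), Ehf (2.61 and 2.47), Elf1 (1.19 and 1.05) and the CIC partner gene Atxn1l (1.34 and 1.94) rose in both. Etv1 (1.61), the third PEA3 family gene, Ets1 (3.09), Elk4 (1.77) and Atxn1 (1.80) rose in SOX9-mEGFP_spheroid, and Spdef (−2.60) fell in SOX9-Halo_spheroid. Cic itself (−0.23 and 0.45) and Elf3 (−0.12 and −0.78) did not pass.

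Upstream, 6 receptor tyrosine kinase genes of 14 tested rose and 3 fell in SOX9-mEGFP_spheroid, and 6 rose and 5 fell in SOX9-Halo_spheroid (medians 0.45 and 0.45). Epha2 rose in both (1.52 and 2.31), Erbb2 fell in SOX9-Halo_spheroid (−1.13) and Erbb3 passed in neither. Egfr (1.69 and 1.17), Met (3.11 and 2.59), Igf1r (2.05 and 2.96) and Fgfr4 (4.93 and 1.41) also rose in both spheroid conditions. Fgfr3 (−2.31 and −5.50), Pdgfrb (−5.46 and −5.02) and Ret (−6.31 and −7.54) fell in both. Fgfr4 had passed in both budding conditions (3.72 and 3.48) and Igf1r in SOX9-mEGFP_budding (2.79). From budding to spheroid the list medians were −0.02 and −0.43, and Egfr rose in both lines (1.59 and 1.04). Of 6 EGF family ligand genes 3 rose and 1 fell, and 2 rose and 2 fell (medians 1.22 and 0.48), with Hbegf up in both (3.00 and 2.30), Tgfa up in SOX9-mEGFP_spheroid (1.47) and Areg down in SOX9-Halo_spheroid (−1.76). Of 28 genes of the cascade between receptor and ERK, 1 rose and 2 fell, and 2 rose and 4 fell (medians 0.32 and 0.24). Of all genes 15.3% and 13.6% rose, and 12.1% and 15.3% fell. Of its most abundant genes, Map2k2, which encodes MEK2, fell in both (−1.08 and −1.49), and Mapk3, which encodes ERK1 (−1.94), and Rps6ka1, at the fold limit, fell in SOX9-Halo_spheroid. Of 18 other ERK response genes 11 rose in SOX9-mEGFP_spheroid, and 9 rose and 1 fell in SOX9-Halo_spheroid (medians 2.24 and 1.37). Among these the cyclin D1 gene Ccnd1 rose in both (2.17 and 3.03) and Emp1 in SOX9-mEGFP_spheroid (2.05), while Ets2 (0.22 and −0.85) did not pass. The lists were chosen with earlier results of these data known. They were set beside the all-gene shares and medians (0.03 and −0.01) only by count and median, with no list test.

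**Figure D5:**
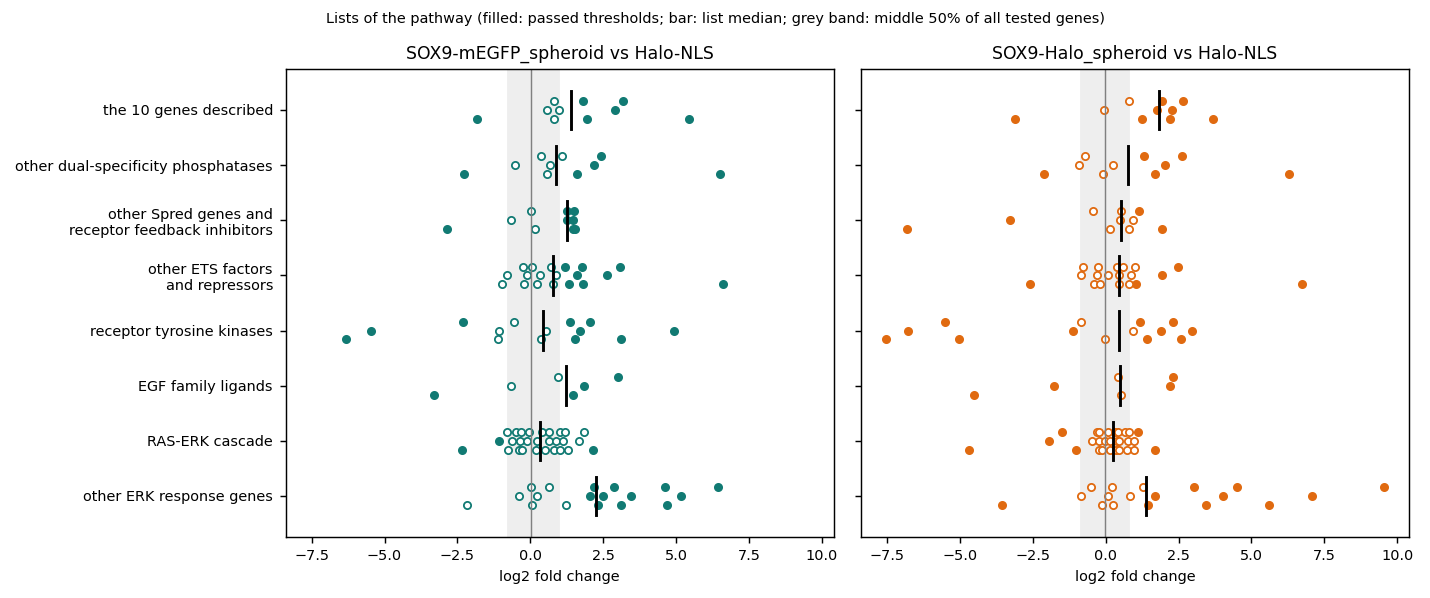
Log2 fold change against Halo-NLS (x axis) of every tested gene of each pathway list (rows) in SOX9-mEGFP_spheroid (left) and SOX9-Halo_spheroid (right); filled points passed the thresholds, black bars are list medians, and the grey band and line are the middle 50% and median of all tested genes. The medians of the 10 genes described (1.39 and 1.84) and of the other ERK response genes (2.24 and 1.37) lie right of the band, and that of the RAS-ERK cascade (0.32 and 0.24) within it.

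Reads were counted without strand, and 7 of the 10 genes (Dusp5, Dusp6, Spry1, Spry2, Etv4, Etv5 and Phlda1) share exon bases with genes on the other strand. These neighbours had at most 28 reads in any library. Reads over the shared bases count as ambiguous for both genes in the counting mode used, so the level of these 7 genes can be understated, and reads from a gene and its antisense partner cannot be told apart there. Dusp4, Spry4 and Spred1 share none.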

How the data were processed

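Poly-A RNA from 15 organoid cultures was sequenced by the authors as 150-base paired reads. Per the study's methods and processing notes, reads were trimmed with cutadapt 4.5, uniquely aligned with STAR to the mouse mm39 genome and counted without strand by HTSeq 2.0.2 (union mode, Ensembl GRCm39). The deposited values used here are these raw counts of read pairs per gene, 1 file per library. The authors' comparison tables (fold changes and p-values from DESeq2) and normalised counts were not used. Each library had 1.83 to 6.09% of its reads outside genes and 9.65 to 13.6% on overlapping genes, left out of library sizes and tests.

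The counts were scaled by TMM and fitted in edgeR 4.0.16 (R 4.3.3) with filterByExpr and 1 coefficient per condition over all 15 libraries, and the quasi-likelihood test was adjusted by Benjamini-Hochberg over the 17560 genes tested. A gene was called when its adjusted p did not exceed 0.01, its level changed 2-fold or more and its normalised count averaged 10 or more over the 15 libraries. Standard errors were the log2 fold change divided by the root of the F statistic. The code was tested on simulated data. Alternatives were DESeq2 1.42.0, its size factors in edgeR, library sizes alone, no filter, only the libraries compared, a replicate block and leaving out each library. A block within the SOX9-Halo line and leaving out the third replicate of every condition were added after seeing the data.

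The 10 genes and all lists were chosen with earlier results of these data known. All 10 genes were named, with the 3 most abundant genes of each other list, every called gene of the first 3 lists in either spheroid against Halo-NLS, and the 3 genes most like Dusp6. Receptor tyrosine kinase genes called in both spheroid conditions were added after seeing the data. Same-numbered libraries deviated together (r above 0.1 for all 3 numbers over 15718 genes) in 1 of 10 pairs of conditions, SOX9-Halo_budding and SOX9-Halo_spheroid (r = 0.31, 0.18 and 0.27), which was taken as paired. Taken singly, 17 of 30 same-numbered pairs of libraries were above 0.1, and Halo-NLS with SOX9-Halo_budding gave 0.40, 0.70 and 0.046. Values printed for the paired conditions are from the fit without a block unless a block is named. Promoters and gene positions were read from GRCm39 and GENCODE M39, in which 78168 of the 78298 gene identifiers were found. Spry4 has no printed sequence.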

Additional observations from a re-analysis of the deposited data

Results flagged for a closer look

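By edgeR's interaction test, the SOX9 lines differed in the step from budding to spheroid for 2 of the 10 genes. For Dusp6 the difference was −1.90 (log2, the SOX9-Halo change of 0.35 minus the SOX9-mEGFP change of 2.25), and for Spry1 it was 1.54 (2.26 minus 0.72), each from 3 libraries per condition. All 3 SOX9-mEGFP_spheroid libraries exceeded all 3 SOX9-Halo_spheroid libraries for Dusp6, and the reverse held for Spry1. Each tag was carried by 1 line with a different H2B construct in its spheroids, so the tag, the line and that construct cannot be told apart.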

How the results depend on the processing

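The 30 values that passed were recomputed in 409 alternatives, of which 382 kept the direction and the call, 27 lost the call and 0 changed direction. The 60 values that did not pass gave 831 alternatives, of which 30 passed and 35 changed direction. In SOX9-mEGFP_budding against Halo-NLS the count of genes called higher went from 0 to 1 with DESeq2 and 1 with no filter, and in SOX9-Halo_budding the counts higher and lower went from 0 to 1 each with DESeq2 and to 1 each with no filter. For the difference between the lines, the count lower went from 1 to 2 with DESeq2 and 2 with the replicate block (Spry4), and the count higher from 1 to 0 with no filter (Spry1). Over all genes these counts went from 979 to 1294 and 1111 lower, and from 318 to 471 higher. The cause was not tested. When a single library or the third replicate of every condition was left out, the counts called higher ranged from 0 to 1 in both budding conditions against Halo-NLS, those of SOX9-Halo_spheroid against SOX9-mEGFP_spheroid from 0 to 2 higher and 1 to 2 lower, and those of the line difference from 0 to 1 in each direction. Over all genes the counts higher ranged from 111 to 1839 in SOX9-mEGFP_budding and from 69 to 1986 in SOX9-Halo_budding. Between the spheroids they ranged from 408 to 566 higher and 1217 to 1554 lower, and in the line difference from 116 to 336 higher and 614 to 919 lower. With the replicate block, Etv4 in SOX9-mEGFP_spheroid against Halo-NLS (1.05, adjusted p = 0.0022) and Dusp5 between the spheroids (−1.32, 0.0052) also passed, and the block changed no other call than these, Spry4 above and Etv4 in the SOX9-Halo line. In the fit of only the libraries compared, Etv4 in SOX9-Halo_spheroid against Halo-NLS (1.21, 0.011) and Dusp4 in the SOX9-Halo line (1.41, 0.011) no longer passed. Library sizes alone moved the median of all genes to between 0.27 and 0.31 in the 4 comparisons with Halo-NLS and the split of all genes called higher and lower from 350 and 134 to 620 and 108 (SOX9-mEGFP_budding), 438 and 221 to 1068 and 109 (SOX9-Halo_budding), 2690 and 2133 to 3333 and 1500 (SOX9-mEGFP_spheroid) and 2392 and 2682 to 3102 and 2229 (SOX9-Halo_spheroid). Values near 0 changed direction with library sizes alone for Dusp4 (0.032) and Etv5 (0.15) in SOX9-mEGFP_budding, Dusp6 in SOX9-Halo_spheroid (0.22) and Spry2 between the budding conditions (0.066), and for Spry2 with only the libraries compared (0.023). Leaving out a library, or the third replicate of every condition, also turned the direction of values that did not pass. These ranged from −0.40 to 0.12 for Dusp4, −0.016 to 0.18 for Spry1 and −0.36 to 0.22 for Etv5 in SOX9-mEGFP_budding against Halo-NLS, and from −0.18 to 0.45 for Etv4 and −0.25 to 0.39 for Etv5 in SOX9-Halo_budding. Between the budding conditions they ranged from −0.46 to 0.030 for Dusp5, −0.15 to 0.26 for Dusp6, −0.070 to 0.10 for Spry2, −0.36 to 0.45 for Spry4, −0.50 to 0.47 for Spred1, −0.57 to 0.072 for Etv4 and −0.14 to 0.45 for Etv5, and in the line difference from −0.20 to 0.44 for Etv5. With 3 libraries per condition and a common biological coefficient of variation of 0.302, depth limited only Spry4, with 5 to 29 reads outside the spheroids.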

Other observations

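In the difference between the lines from budding to spheroid, the median over tested genes was 0.88 on chromosome 19, where Dusp5 stood at −1.09, 0.42 on chromosome 8, where Dusp4 stood at 0.72, and −0.65 on chromosome 18, where Spry4 stood at −1.89, against −0.08 over all tested genes. For Dusp6, Spry1 and Spry2 the medians of their chromosomes were −0.08, −0.21 and −0.19. The part of these shifts in the values of single genes was not tested.

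Several genes of the other lists differed between the spheroids. Lrig3 averaged 0.239 CPM in SOX9-Halo_spheroid and 17.0 ± 2.22 CPM (SD, n = 3) in SOX9-mEGFP_spheroid. Ets1 (−2.08, edgeR adjusted p = 3.2e-04), Etv1 (−2.01, 2.5e-04) and Dusp1 (−2.32, 7.2e-04) were lower in SOX9-Halo_spheroid.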
